A study of Homo sapiens with 12 samples.

Results

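The 4 genes that encode the NDC80 complex, NUF2, NDC80, SPC24 and SPC25, were followed in renal carcinoma cells in which NUF2 itself was the target of RNA interference. They were taken by gene symbol from the 58302 genes of each table, each symbol matched 1 gene, and all 4 were expressed above the minimum in both 769-P and ACHN cells (0.5 FPKM in at least 3 libraries). The series holds 12 RNA sequencing libraries from 769-P and ACHN cells, established lines labelled as clear cell renal cell carcinoma. Each line was transfected with siRNA against NUF2 (siNUF2) or control siRNA (siControl), and total RNA was taken at 48 h, with 3 libraries per group. The knockdown was transient, and the libraries measure mRNA, not protein.

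The NDC80 complex is a long rod at the outer kinetochore, the structure that ties a chromosome to spindle microtubules in mitosis. At one end the globular heads of NDC80 and NUF2 face the microtubule, and at the other end SPC24 and SPC25 bind the inner kinetochore, so the rod is built from an NDC80-NUF2 dimer joined to an SPC24-SPC25 dimer. The complex also serves as a platform for the spindle assembly checkpoint, which holds cells in mitosis until chromosomes are attached, and its genes are transcribed mainly in dividing cells.

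Levels are FPKM, fragment counts divided by exon length and sequencing depth, so genes of different length can be set side by side. The libraries held between 26367678 and 34581765 recovered reads, and the 4 genes had 266 to 2160 reads in a library, which gives a counting error of 2.15% to 6.13% of a value. Log2 fold changes come from limma on log2(FPKM + 0.1), with p-values adjusted by the Benjamini-Hochberg method over all genes tested and a call at an adjusted p under 0.05. The labels do not say whether replicates came from separate cultures, so p-values measure only the spread between these libraries, which may be technical. In ACHN cells each library correlated more closely with the library of the same replicate number and the other siRNA (r = 0.983 to 0.990 over 10046 genes) than with libraries of its own siRNA (0.954 to 0.975), whereas in 769-P cells the order was the opposite (0.973 to 0.983 against 0.986 to 0.991). Values with replicate numbers as blocks are therefore given beside those without them for the response of the subunits within a line, and for some of the other genes. The renal factors PAX8 (44.7 to 199 FPKM) and PAX2 (5.52 to 23.8) were present in all libraries, CA9, a hypoxia target typical of clear cell carcinoma, stayed at or below 0.121 FPKM, and the leukocyte, endothelial and hepatocyte markers PTPRC, CD3E, PECAM1 and ALB were at or below 0.0461.

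The sites of the NUF2 siRNAs are shown because they define which NUF2 transcripts can be cut. The study describes si-NUF2 as a mixture of siRNA2 and siRNA3. The target sites below are mRNA sense sequences from GENCODE release 29, and capitals mark the bases that pair with positions 2 to 8 of the guide strand.
siRNA-NUF2-2 site: gcatgaagatgTTAAGCAa
siRNA-NUF2-3 site: ggaggaccaaaTTGAGAGt
Both lie in coding sequence in exon 12 of the 14 exons of the principal NUF2 transcript, on the forward strand of GRCh38, the former at chr1:163347900-163347918 and the latter at chr1:163347774-163347792. Each site was present in 3 of the 12 annotated NUF2 transcripts, and these were 3 of the 6 coding ones. No other annotated gene held either site in full. The deposited value of NUF2 covers all of its annotated exons, so it does not separate transcripts with the sites from those without them.

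The promoters were searched for 2 short elements of cell cycle genes. The cell cycle genes homology region, searched here only as TTTGAA, is the element through which MuvB complexes act on genes of late G2 and mitosis, and CCAAT is bound by NF-Y. RefSeq promoters of 300 bases (GRCh38.p14) were found for all 4 genes and both strands were searched. TTTGAA or its reverse TTCAAA lay close to the start of 3 of the 4 genes, and capitals mark it in the sequences.
NUF2: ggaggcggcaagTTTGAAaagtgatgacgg
NDC80: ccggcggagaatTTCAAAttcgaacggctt
SPC25: aagtgcactaggTTTGAAatcggaaagttg
The first base of the match was 16 bases after the start in NUF2 (chr1:163321958-163321987, forward strand) and 3 bases before it in NDC80 (chr18:2571542-2571571, forward strand) and SPC25 (chr2:168890416-168890445, reverse strand). SPC25 held a further match 247 bases before its start, and the SPC24 window held none. Of all 27305 promoters, 15.4% held TTTGAA or TTCAAA somewhere in the window and 4.67% within 50 bases of the start. Other forms of the element were not searched. CCAAT or ATTGG occurred 3 times in SPC24, 2 times in SPC25 and not in the windows of NUF2 or NDC80, against 35.7% of all promoters with at least 1. These matches describe letters in a window and were not tied to binding.

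NUF2 (ENSG00000143228, chr1:163266576-163355764, forward strand) was the targeted gene. In the 769-P line NUF2 stood at 19.4, 17.8 and 17.8 FPKM in siControl replicates 1 to 3 and at 4.17, 3.86 and 3.01 FPKM in siNUF2 replicates 1 to 3. The groups did not overlap, and the mean went from 18.3 ± 0.951 to 3.68 ± 0.602 FPKM (SD, n = 3), leaving 20.1% of the siControl level. NUF2 fell by 2.29 on the log2 scale (SE 0.129, limma with Benjamini-Hochberg adjusted p = 0.00141), the only one of the 4 genes called in this line, where 9.9% of the 14157 genes tested were called (5.32% higher and 4.58% lower). Over all alternatives the adjusted p stayed between 0.00015 and 0.00995, and with the replicate block it was 0.00256.

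In ACHN cells NUF2 was at 11.6, 15.0 and 14.8 FPKM with siControl and at 2.16, 5.14 and 4.25 FPKM with siNUF2. All siNUF2 libraries lay below all siControl libraries, a pattern shared by 6.11% of genes in this line and by 16.2% in the other. Replicate 1 was the lowest of its group with either siRNA. The mean went from 13.8 ± 1.94 to 3.85 ± 1.53 FPKM (SD, n = 3), leaving 27.9%, and the remaining share was 18.7%, 34.2% and 28.7% in the same-numbered pairs 1, 2 and 3, against 21.5%, 21.7% and 16.9% in 769-P cells.

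The log2 difference of NUF2 in ACHN cells was -1.88 (SE 0.319, 95% confidence interval -2.66 to -1.11), which did not pass limma's Benjamini-Hochberg adjustment (adjusted p = 0.228). No gene among the 15114 tested passed in ACHN cells without the block (0% called), and 1231 had an unadjusted p under 0.05. With the replicate block 11.7% of genes were called (6.65% higher and 5.09% lower) and NUF2 was among them (adjusted p = 0.0127). Over the alternatives its adjusted p ran from 0.0116 to 0.799.

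**Figure D1:**
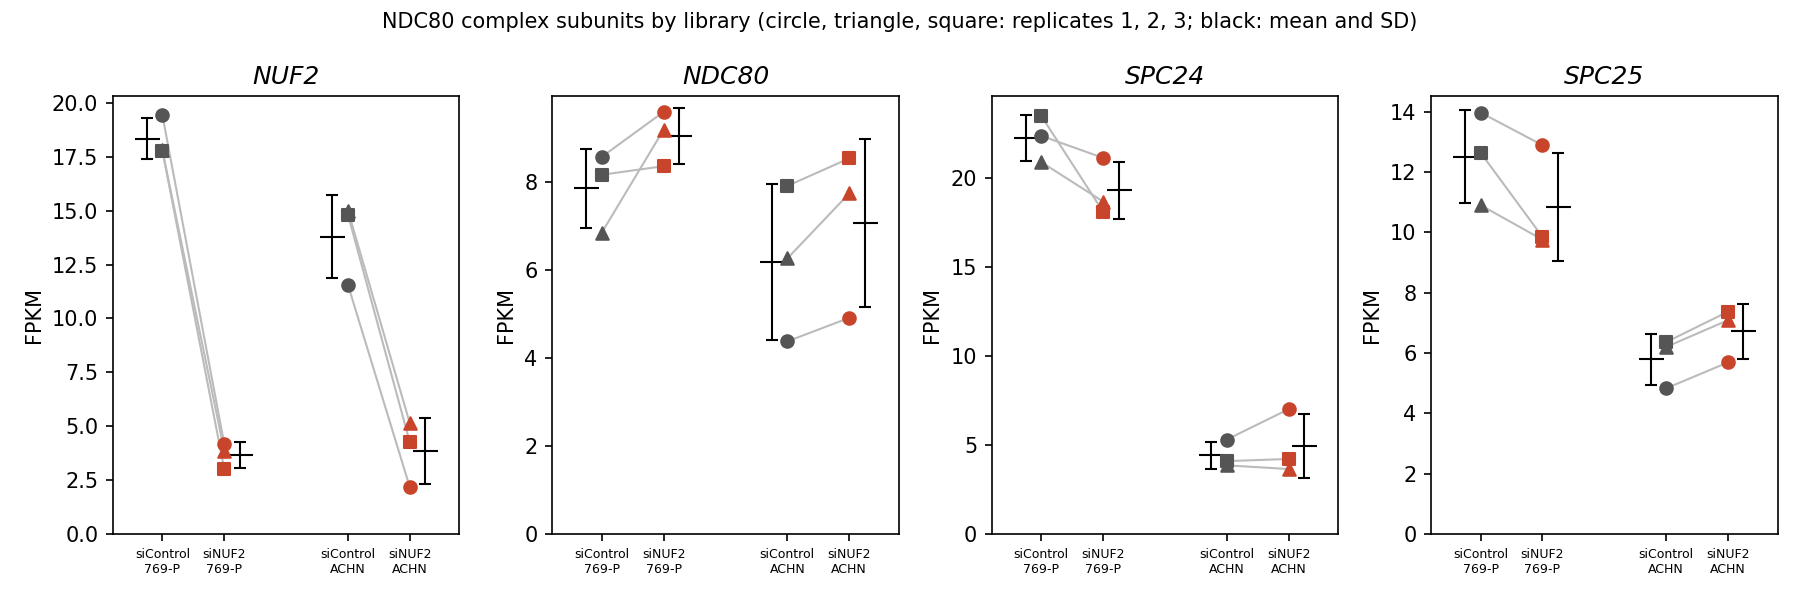
FPKM (y axis, from 0) of the 4 subunits in each of the 12 libraries, with grey siControl and red siNUF2 points, marker shapes for replicate numbers, grey lines between same-numbered libraries and black bars for mean and SD (n = 3). NUF2 drops to between 3.01 and 4.17 FPKM in 769-P, and to between 2.16 and 5.14 in ACHN, while the siNUF2 and siControl libraries of NDC80, SPC24 and SPC25 overlap in both lines.

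NDC80 (ENSG00000080986, chr18:2571511-2616635, forward strand) encodes the direct partner of NUF2 in the microtubule-binding dimer. In 769-P cells NDC80 was at 8.56, 6.84 and 8.16 FPKM with siControl and at 9.59, 9.18 and 8.35 FPKM with siNUF2. Its ACHN levels were 4.37, 6.26 and 7.90 FPKM with siControl and 4.91, 7.73 and 8.53 FPKM with siNUF2. The groups overlapped in both lines, and the siNUF2 library was the higher one in all 6 same-numbered pairs. Of all genes, 31.3% were higher in all 3 pairs of 769-P and 28% in all 3 of ACHN cells.

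The log2 difference of NDC80 was 0.22 in 769-P (SE 0.109, limma adjusted p = 0.249 by Benjamini-Hochberg, 95% interval -0.04 to 0.48) and 0.20 in ACHN cells (SE 0.287, adjusted p = 0.973, interval -0.50 to 0.90). NDC80 was not called in either line, and both intervals include losses as well as gains. Without siControl replicate 1 the ACHN difference was -0.02. With the replicate block the 769-P interval was -0.003 to 0.44, at a limma adjusted p of 0.121. The ACHN interval narrowed to 0.04 to 0.36 with the block, at an adjusted p of 0.0957.

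SPC24 and SPC25 encode the dimer at the kinetochore end of the rod. SPC24 (ENSG00000161888, chr19:11131520-11155808, reverse strand) was at 22.4, 20.9 and 23.5 FPKM with siControl and at 21.1, 18.7 and 18.1 FPKM with siNUF2 in 769-P cells. In ACHN cells SPC24 was at 5.30, 3.85 and 4.09 FPKM with siControl and at 7.00, 3.64 and 4.20 FPKM with siNUF2. Replicate 1 of ACHN was thus the highest in both groups for SPC24, and the lowest in both groups for the other 3 subunits.

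The siNUF2 libraries of SPC24 were lower in all 3 pairs of 769-P and in 1 of 3 pairs of ACHN cells, against 31.8% and 26.6% of genes that were lower in all 3 pairs. The log2 difference was -0.19 in 769-P (SE 0.0865, limma Benjamini-Hochberg adjusted p = 0.205) and 0.13 in ACHN cells (SE 0.268, adjusted p = 0.989), and without ACHN siNUF2 replicate 1 the latter was -0.15. With the replicate block the limma adjusted p was 0.0908 in 769-P and 0.451 in ACHN cells, so SPC24 was not called in either line. The strand setting of the authors' counting is not given in the sources used here, so where a subunit's exons overlap those of a gene on the opposite strand, the reads cannot be told apart.

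SPC25 (ENSG00000152253, chr2:168834132-168913371, reverse strand) was at 14.0, 10.9 and 12.6 FPKM with siControl and at 12.9, 9.76 and 9.85 FPKM with siNUF2 in 769-P cells. In ACHN cells SPC25 was at 4.83, 6.20 and 6.36 FPKM with siControl and at 5.69, 7.09 and 7.37 FPKM with siNUF2. The groups overlapped in both lines, yet the siNUF2 library was lower in 3 of 3 pairs of 769-P (77.9% to 92.3% of siControl) and higher in 3 of 3 pairs of ACHN cells (114% to 118%). The log2 difference was -0.20 in 769-P (SE 0.143, limma Benjamini-Hochberg adjusted p = 0.424) and 0.22 in ACHN cells (SE 0.157, adjusted p = 0.846). With the replicate block these became 0.0753 and 0.0559, so SPC25 was not called in either line.

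**Figure D2:**
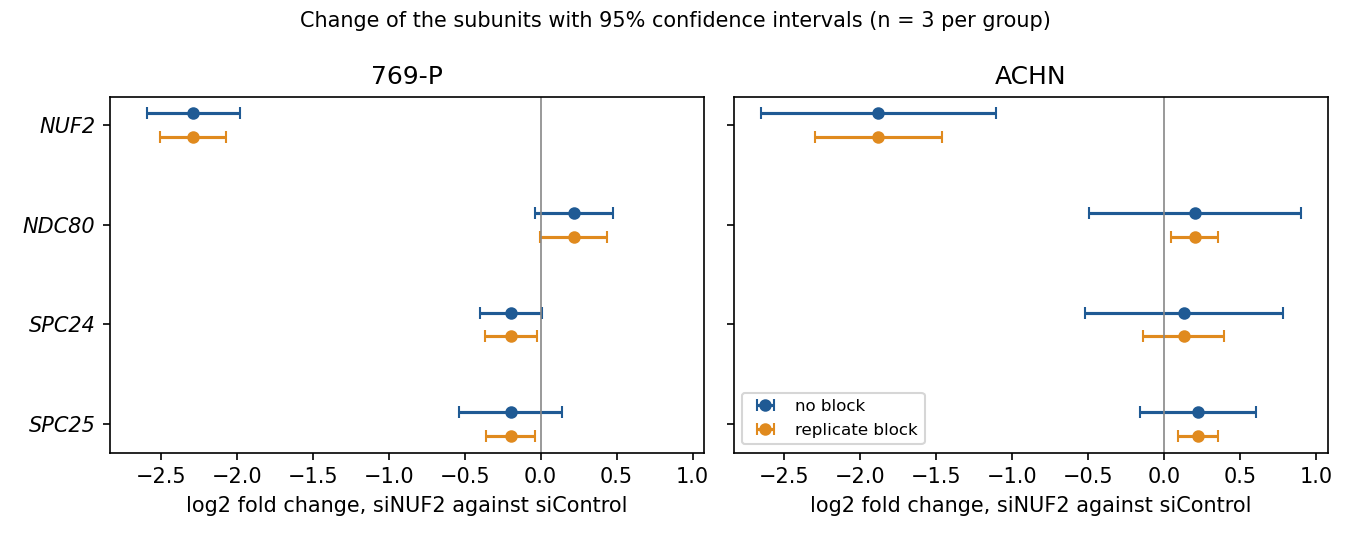
Log2 fold change of each subunit, siNUF2 against siControl (x axis), in 769-P (left) and ACHN cells (right), with points for the estimate and bars for its 95% confidence interval, without (blue) and with (orange) the replicate block, n = 3 per group. The NUF2 intervals lie far below 0 in both lines (-2.59 to -1.98 and -2.66 to -1.11 without the block), and those of the other 3 subunits all cross 0 without the block. With the block the 769-P intervals of SPC24 (-0.36 to -0.02) and SPC25 (-0.36 to -0.04) lie below 0. The blocked ACHN intervals of NDC80 (0.04 to 0.36) and SPC25 (0.09 to 0.35) lie above it. Those of NDC80 in 769-P and SPC24 in ACHN cross 0, and none of these 3 subunits was called after adjustment.

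Whether the subunits responded differently in the lines was tested by an interaction term between siRNA and line, with all 12 libraries in the fit. The response in 769-P less that in ACHN cells was -0.41 for NUF2 (SE 0.370), 0.01 for NDC80 (SE 0.327), -0.33 for SPC24 (SE 0.295) and -0.42 for SPC25 (SE 0.224) on the log2 scale. All 4 had an adjusted p of 1.00 (limma, Benjamini-Hochberg), as 0% of the 16575 genes passed this test and 782 had an unadjusted p under 0.05. With the replicate block 1.41% of genes passed, and SPC25 came nearest among the subunits at an adjusted p of 0.0604, followed by SPC24 at 0.260, NUF2 at 0.356 and NDC80 at 0.972. The NUF2 difference was -0.77 without ACHN siNUF2 replicate 1 and -0.17 without ACHN siNUF2 replicate 2, and that of SPC24 was -0.05 and -0.52. For NDC80 it turned sign with 1 library left out in turn (-0.23 to 0.23).

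The make-up of the complex at the mRNA level was described by the share of each subunit in the summed FPKM of the 4 genes of a library, a measure that does not depend on scaling between libraries. NUF2 made up 30.1% ± 1.44 of the sum in siControl and 8.56% ± 0.838 in siNUF2 libraries of 769-P cells (SD, n = 3). In ACHN cells NUF2 went from 45.7% ± 1.97 to 16.7% ± 5.45. The NUF2 shares did not overlap in either line, and the exact two-sided permutation test gave p = 0.1, the smallest that 3 against 3 libraries allow (0.114 after adjustment over 8 shares).

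The shares of a library sum to 100%, so by construction those of the others rise when NUF2 falls. In the 769-P line the share of NDC80 went from 12.9% to 21.2%, that of SPC24 from 36.5% to 45.1% and that of SPC25 from 20.5% to 25.2%. The ACHN shares went from 20.2% to 30.9% for NDC80, from 15.0% to 22.7% for SPC24 and from 19.2% to 29.7% for SPC25. The groups did not overlap except for SPC24 in ACHN cells, where the exact permutation p was 0.3. The SPC24 difference of 7.73 percentage points in ACHN was 1.37 points without siNUF2 replicate 1 and 11.4 without replicate 2. The summed FPKM of all 4 genes was 70.3% of siControl in 769-P and 74.8% of it in ACHN (exact permutation p = 0.1 each), and that of the 3 partners without NUF2 was 91.9% and 114% (exact permutation p = 0.2 each). Adjusted over these 4 sums, p was 0.2 for each. The permutation tests of shares, ratios and sums do not use the replicate numbers. By replicate number, the sum of the 3 partners went from 44.9 to 43.6, 38.6 to 37.6 and 44.3 to 36.3 FPKM in 769-P. In ACHN cells it went from 14.5 to 17.6, 16.3 to 18.5 and 18.4 to 20.1 FPKM.

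Ratios between subunits do not have that constraint. NUF2 was present at 2.34 times NDC80 in siControl and 0.404 times in siNUF2 libraries of 769-P cells. The ACHN values were 2.28 and 0.527 times. NUF2 mRNA thus exceeded NDC80 mRNA with siControl and was below it with siNUF2. As the targeted gene, NUF2 also fell relative to the other subunits, so the fall is not particular to NDC80. Relative to SPC25, siControl and siNUF2 libraries held NUF2 at 1.47 and 0.339 times (769-P line) and at 2.38 and 0.542 times (ACHN line). Relative to SPC24 the values were 0.825 and 0.189 times (769-P line) and 3.14 and 0.761 times (ACHN line). The ratio of SPC24 to SPC25 within the kinetochore-anchoring dimer was 1.79 in both groups of 769-P cells, and 0.759 with siControl and 0.712 with siNUF2 in ACHN cells (exact permutation p = 1 and 0.7). In 769-P cells the mean ratio of NDC80 to SPC24 was 0.352 with siControl and 0.469 with siNUF2, and that to SPC25 was 0.628 and 0.840. These ratios did not overlap between the groups (exact permutation p = 0.1, adjusted p = 0.15 over 12 ratios). Both hold NDC80, so they are not separate observations. Among single genes of this line, 16.2% had every siNUF2 library below every siControl library, and the share for ratios of other gene pairs was not measured. In ACHN cells NDC80 was at 1.37 and 1.45 times SPC24 and at 1.04 and 1.03 times SPC25 with siControl and siNUF2, and the groups overlapped.

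**Figure D3:**
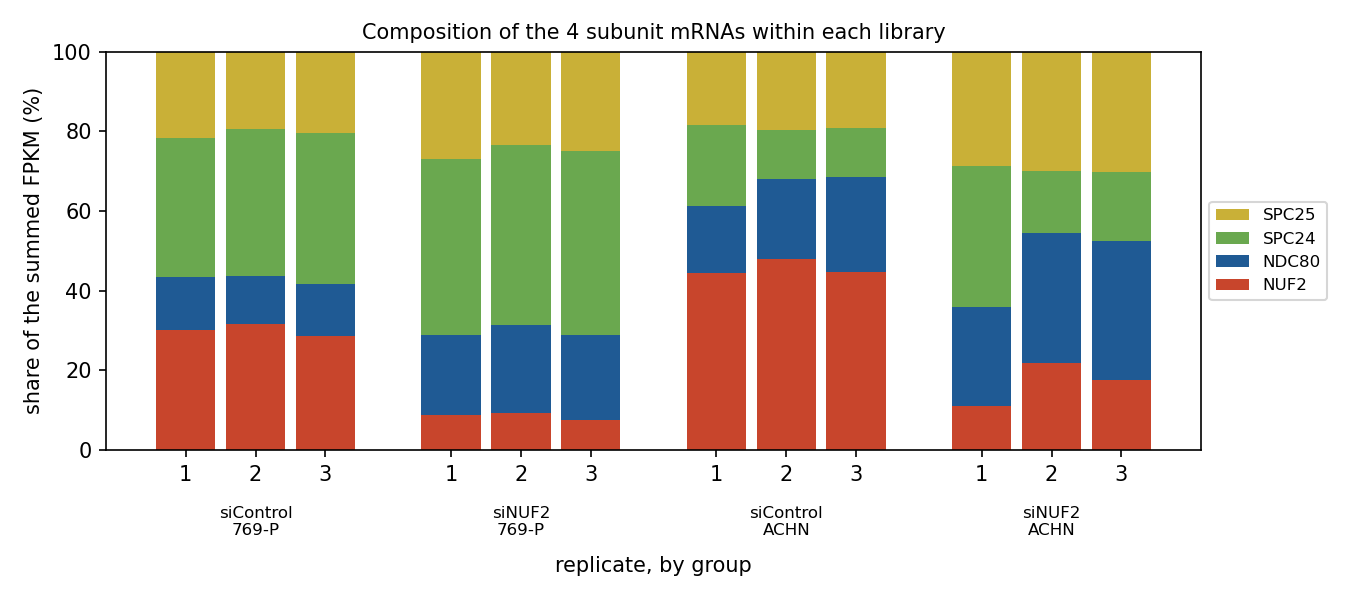
Share of the summed FPKM of the 4 subunits (y axis, %) taken by each subunit in the 12 libraries, stacked, by group and replicate. The red NUF2 part shrinks in 769-P from between 28.7% and 31.5% of the sum to between 7.65% and 9.30%, and in ACHN from between 44.4% and 47.9% to between 10.9% and 21.8%. Among libraries of the same siRNA, the green SPC24 part is larger in every 769-P library than in any ACHN library. Across siRNAs, ACHN siNUF2 replicate 1 (35.4%) lies above 769-P siControl replicate 1 (34.8%).

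The lines also differed in their subunit levels without knockdown. SPC24 was at 22.2 ± 1.30 FPKM in 769-P and 4.41 ± 0.777 in ACHN siControl libraries (SD, n = 3), 5.04-fold higher in 769-P (log2 difference 2.33, SE 0.208, limma Benjamini-Hochberg adjusted p = 3.40e-06). SPC25 was 2.16-fold higher, at 12.5 ± 1.54 and 5.80 ± 0.843 FPKM (log2 difference 1.11, SE 0.158, adjusted p = 0.000112). Both subunits of the kinetochore-anchoring dimer were thus called higher in 769-P cells, where 63.7% of 16575 genes were called and 31.8% were higher.

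NUF2, at 18.3 and 13.8 FPKM, and NDC80, at 7.85 ± 0.899 and 6.18 ± 1.77, differed less, by 0.43 (SE 0.262, limma adjusted p = 0.174) and 0.39 (SE 0.231, adjusted p = 0.165) on the log2 scale by Benjamini-Hochberg. Neither passed, though NUF2 did without ACHN siNUF2 replicate 1 (limma adjusted p = 0.0261). In these bulk libraries fewer dividing cells and less RNA per cell cannot be told apart, and G1/S genes as a list were higher in 769-P cells as well, with 12 of 12 called and a median log2 difference of 1.25, against a median of -0.01 over all genes. For the G2/M list 5 of 12 were called higher, beside 31.8% of all genes, with a median of 0.35. The part of either list in the subunit levels was not tested.

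The order of the siControl levels was SPC24, NUF2, SPC25 and NDC80 from high to low in 769-P cells, and NUF2, NDC80, SPC25 and SPC24 in ACHN cells. In 769-P the libraries of neighbours in this order did not overlap. In ACHN cells NUF2 stood apart, while NDC80 (4.37 to 7.90 FPKM), SPC25 (4.83 to 6.36) and SPC24 (3.85 to 5.30) overlapped with their neighbours. FPKM divides by the length of all annotated exons, which is 3362 bases for NUF2, 3600 for NDC80, 2839 for SPC24 and 1841 for SPC25, against principal transcripts of 1969, 2172, 2315 and 1354 bases. Per kilobase of the principal transcript NUF2 led in 769-P cells as well, at 31.3 ± 1.62 against 27.3 ± 1.60 for SPC24 (SD, n = 3), so the first place in that line depends on the length used.

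**Figure D4:**
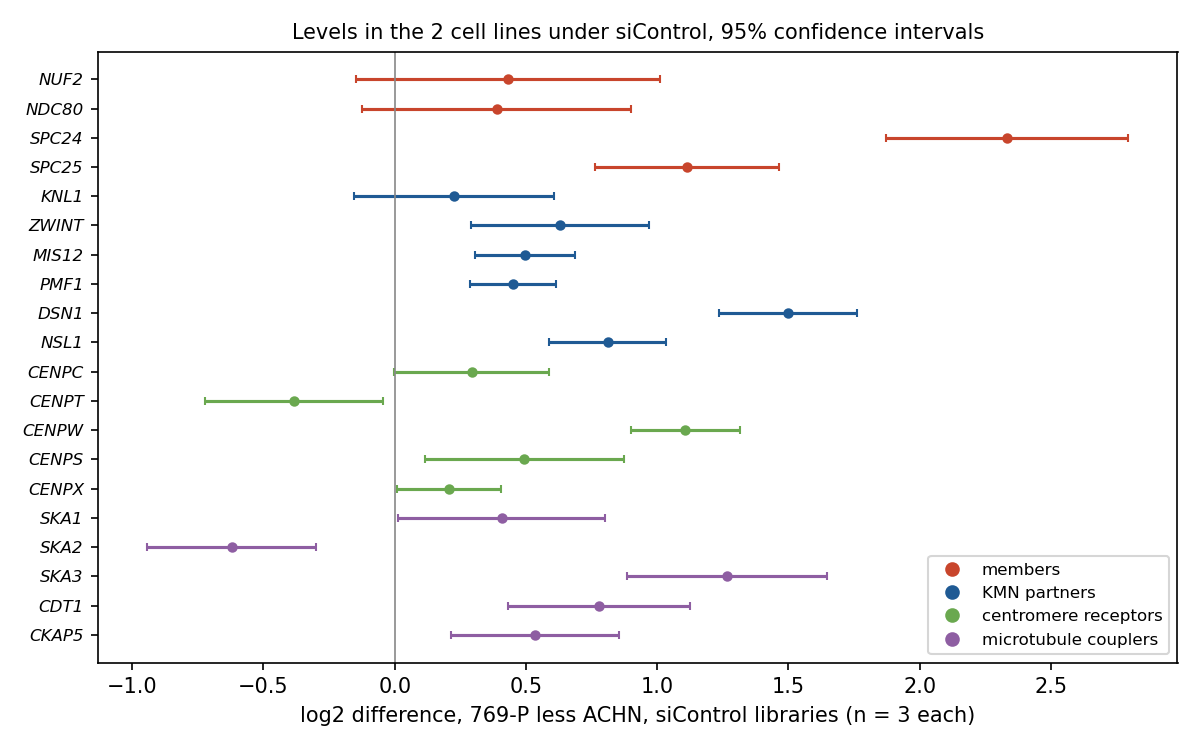
Log2 difference between 769-P and ACHN siControl libraries (x axis, positive when higher in 769-P) for the subunits and 3 lists of kinetochore partners, with points for the limma estimate and bars for 95% confidence intervals (n = 3 per group). SPC24 at 2.33 lies farthest to the right, and the intervals of NUF2 and NDC80 cross 0.

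How the subunits varied together was described over the 12 libraries after subtracting the mean of each group, which removes the effects of line and siRNA. NDC80 and SPC25 then had a Pearson r of 0.83, NUF2 and NDC80 0.80, and NUF2 and SPC25 0.71. Many other genes had a higher r. Among 12931 genes ranked by r to NDC80, SPC25 stood at 404 and NUF2 at 548. By r to NUF2, NDC80 stood at 445 and SPC25 at 1016. SPC24 varied in the opposite sense, with r of -0.82 to NUF2, -0.70 to NDC80 and -0.42 to SPC25. Same-numbered libraries of a line deviate together, and the 2 ACHN libraries of replicate 1 combine high SPC24 with low NUF2, NDC80 and SPC25, so the r values are a description.

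With only the mean of each line removed, so that the knockdown stays in, the genes most like NUF2 among 12931 were RHEB (r = 0.98), DCAF12 (0.98) and RHEBP2 (0.97). RHEBP2 is a pseudogene of RHEB, and reads may have been split between them. The genes most like NDC80 were SNCG (0.97), WDR53 (0.95) and PPP1CC (0.95), those most like SPC24 were ZNF443 (0.96), ARV1 (0.96) and CPPED1 (0.93), and those most like SPC25 were FAM72A (0.95), RPP30 (0.94) and RFC4 (0.94). FAM72A has near-identical paralogs and its value is uncertain. None of the 3 closest genes of any subunit was another subunit, the nearest being NDC80 at rank 529 for SPC25 (r = 0.66). These lists depend on the mean removed. With group means removed, the 3 closest were PTPN1, SARS and CCDC59 for NUF2, and DNAJC9, GART and CEP55 for SPC25. SNCG stayed among the 3 closest of NDC80, and ZNF443 among those of SPC24.

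The genes that work directly with the complex were taken by role. MIS12, PMF1, DSN1 and NSL1 form the MIS12 complex, to which SPC24 and SPC25 bind, and KNL1 with its partner ZWINT completes the KMN network. In 769-P cells 1 of these 6 genes was called, beside 9.9% of all genes there. It was MIS12, which went from 11.0 ± 0.758 to 7.02 ± 0.400 FPKM (SD, n = 3, log2 difference -0.62, limma Benjamini-Hochberg adjusted p = 0.0104). MIS12 had a lower mean with siNUF2 in ACHN cells too (log2 difference -0.43, adjusted p = 0.311, 0.0297 with the replicate block). The list median was -0.13 for 769-P and 0.07 for ACHN, against -0.01 and 0.00 over all genes.

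ZWINT had log2 differences of 0.40 (limma Benjamini-Hochberg adjusted p = 0.0980) and 0.51 (adjusted p = 0.451) in 769-P and ACHN cells, which passed only with the block, at 0.00662 and 0.0357. With the block 27.6% of all genes were called in 769-P cells, 13.9% higher and 13.7% lower. NSL1 was at -0.27 in 769-P cells and passed with the block (adjusted p = 0.0176), while DSN1 was at -0.01 there and at 0.49 in ACHN cells, where it passed with the block (adjusted p = 0.0413). KNL1 (-0.07 and 0.22) and PMF1 (-0.20 and -0.08) passed in neither line with or without the block. Differences of both signs were thus present among the 6 genes, 5 negative in 769-P and 3 negative in ACHN cells.

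The centromere receptors carry the complex through CENPT, which recruits it directly, and CENPC, which holds the MIS12 complex, with CENPW, CENPS and CENPX as partners of CENPT. None of these 5 was called without the block in 769-P cells, beside 9.9% of all genes, or in ACHN cells, beside 0%. An unadjusted limma p under 0.05 was held by 2 of them in 769-P cells, beside 3908 of all 14157 genes. In ACHN cells 0 held one, beside 1231 of 15114. Their log2 differences ran from -0.43 (CENPS) to 0.14 (CENPW) in the 769-P line, and from -0.27 to 0.21 for the same pair of genes in ACHN. CENPX, at -0.24 in 769-P cells, passed with the block (adjusted p = 0.0219 by limma and Benjamini-Hochberg), and CENPC (0.05 and 0.03) and CENPT (-0.03 and 0.08) did not.

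Couplers that help the complex follow microtubule ends are the Ska complex (SKA1, SKA2 and SKA3), CDT1, which binds the loop of NDC80 in mitosis besides licensing replication origins, and the microtubule polymerase CKAP5. SKA2 rose in 769-P cells (log2 difference 0.81, SE 0.0741, limma Benjamini-Hochberg adjusted p = 0.00398) and had a difference of 0.57 in ACHN cells (adjusted p = 0.477, 0.0266 with the block). CKAP5 fell by 0.37 on the log2 scale in 769-P cells (adjusted p = 0.0252) and was at -0.03 in ACHN cells. The CKAP5 call was lost without siNUF2 replicates 2 or 3 or any 1 siControl library (adjusted p up to 0.0904) and with all 12 libraries in 1 fit (0.187), and was kept without siNUF2 replicate 1 (0.0458). CDT1 was at 0.11 in 769-P and 0.56 in ACHN cells, where it passed with the block (adjusted p = 0.0185), and SKA1 (-0.06 and 0.07) and SKA3 (-0.21 and 0.11) did not pass in either line.

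**Figure D5:**
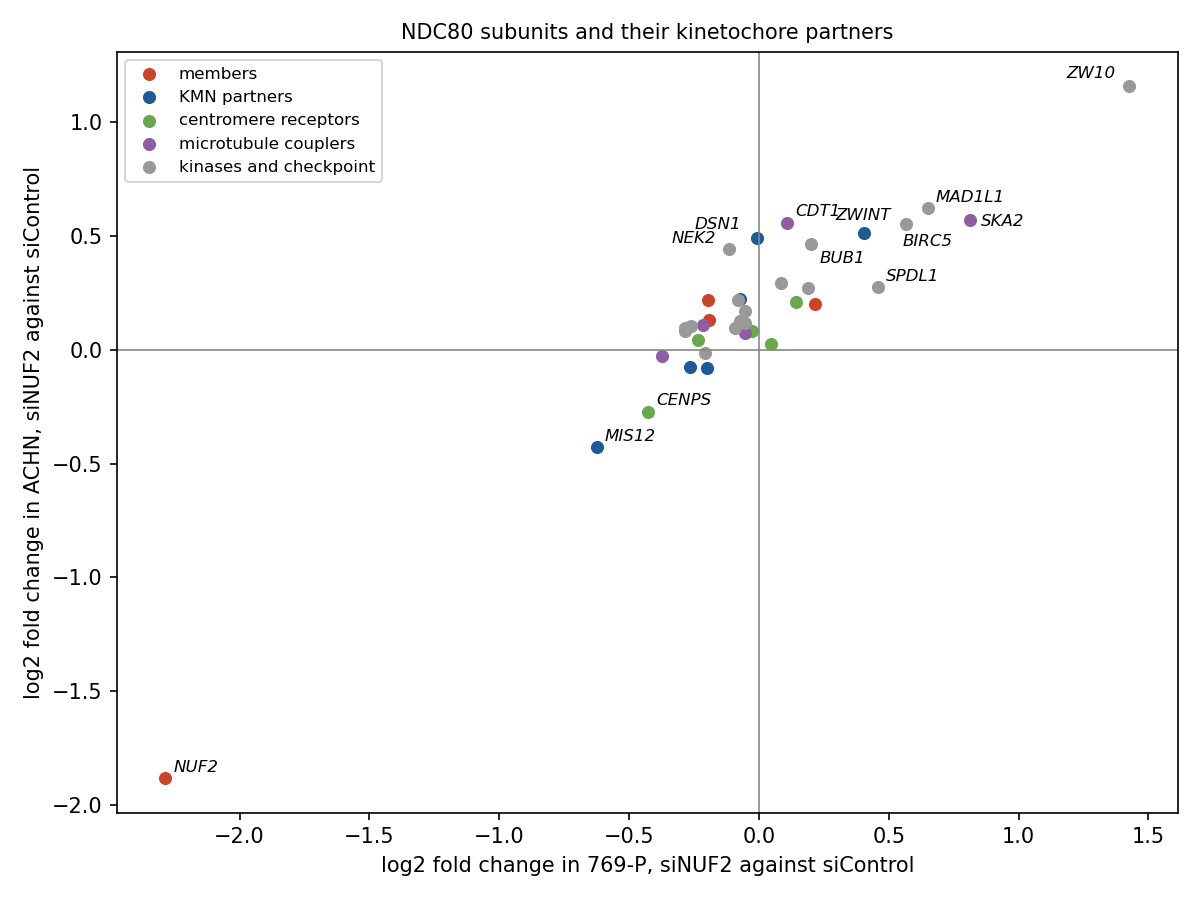
Log2 fold change in 769-P (x axis) against that in ACHN cells (y axis), siNUF2 against siControl, for the 4 subunits (red) and 4 lists of kinetochore genes, with names for genes beyond 0.4 in either line. NUF2 stands alone at lower left (-2.29 and -1.88), ZW10 (1.43 and 1.16) lies at upper right, and NDC80, SPC24 and SPC25 are near the centre among most of the partners.

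Of 17 kinases and checkpoint genes that act on or from the complex, 3 were called higher and 1 lower in the 769-P line, beside 5.32% and 4.58% of all genes there. With the replicate block 5 were called higher and 3 lower, beside 13.9% and 13.7%. None was called in ACHN cells, where 8 were called higher with the block, beside 6.65% of all genes (list medians of -0.05 and 0.22). ZW10, a subunit of the RZZ complex that brings dynein and checkpoint proteins to kinetochores, rose most (log2 difference 1.43, SE 0.0978, limma Benjamini-Hochberg adjusted p = 0.00282), and was at 1.16 in ACHN cells (adjusted p = 0.120, 0.0114 with the block). The other calls in 769-P cells were MAD1L1, a checkpoint protein (0.65, adjusted p = 0.0481), BIRC5, the passenger protein survivin (0.57, adjusted p = 0.0397), and CDCA8, borealin (-0.29, adjusted p = 0.0350). Leaving out any 1 library of 769-P except siControl replicate 1 ended the MAD1L1 and BIRC5 calls (adjusted p up to 0.134 and 0.112), and leaving out any 1 of the 6 ended the CDCA8 call (up to 0.113). All 3 calls were also lost with all 12 libraries in 1 fit (adjusted p = 0.0580, 0.202 and 0.437). PLK1 (-0.29) and MAD2L1 (-0.26), the next lowest of the list in 769-P cells, did not pass without the block (adjusted p = 0.136 and 0.204), and with it PLK1 did (0.0102) and MAD2L1 did not (0.0692).

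Since the subunits are cell cycle genes, markers of cycle phases are given beside them. Of 12 G2/M genes, 1 was called in 769-P cells, beside 9.9% of all genes there. It was CENPF, a large kinetochore protein of G2 and mitosis (0.37, limma Benjamini-Hochberg adjusted p = 0.0482). Its call was kept without siControl replicate 1 and lost without any other 1 library (adjusted p up to 0.131). The median was 0.04 for 769-P and 0.18 for ACHN, where 0 were called without the block. With the block 4 were called higher in ACHN cells, beside 6.65% of all genes. The highest and lowest in 769-P cells after CENPF were CCNB2 (0.27), TPX2 (0.22), CCNA2 (-0.24), KIF11 (-0.15) and TOP2A (-0.11), none called without the block. With the block 3 of the 12 were called higher and 1 lower in 769-P cells, beside 13.9% and 13.7% of all genes. These were CENPF, CCNB2 and TPX2 (limma Benjamini-Hochberg adjusted p = 0.0232, 0.0161 and 0.0148) and CCNA2 (0.0441).

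Of 12 G1/S genes 0 were called in 769-P cells without the block, beside 9.9% of all genes. An unadjusted limma p under 0.05 was held by 4 of the 12, beside 3908 of all 14157 genes. The median was 0.05, with a range from -0.23 (RRM2), -0.21 (SLBP) and -0.07 (MCM4) to 0.20 (MCM3), 0.24 (TYMS) and 0.32 (GINS2). With the block 3 were called higher, GINS2, MCM3 and TYMS (limma Benjamini-Hochberg adjusted p = 0.0157, 0.0182 and 0.0220), and 2 lower, SLBP (0.0371) and RRM2 (0.0432), beside 13.9% and 13.7% of all genes.

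In ACHN cells all 12 G1/S genes had a positive log2 difference, with a median of 0.44. None was called without the block, beside 0% of all genes, and 6 were called higher with it, beside 6.65%. Without the block 8 had an unadjusted limma p under 0.05, beside 1231 of all 15114 genes. Their summed level was 226 to 299 FPKM in siControl and 340 to 370 in siNUF2 libraries of ACHN cells, and 582 to 636 and 592 to 671 in 769-P cells. NDC80 and SPC25 had their differences of 0.20 and 0.22 in the same ACHN libraries, and the part of cycle phase in them was not tested.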

How the data were processed

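RNA of 769-P and ACHN cells was sequenced on an Illumina platform, and the authors filtered reads with fastp. The submitters' processing notes name HISAT2 2.0.5, featureCounts 1.5.0-p3 and hg38. The authors deposited 1 FPKM value per gene and library. FPKM times the exon lengths of GENCODE release 29 gave whole reads (within 0.02) for 96.8% of low values, and read totals come from the 34585 genes whose values were all whole.

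FPKM were scaled by a trimmed mean of log ratios (30% and 5% trimmed, factors 0.992 to 1.01), filtered at 0.5 in at least 3 libraries, and log2(FPKM + 0.1) was fitted with limma 3.58.1 (lmFit, eBayes with trend) in R 4.3.3. These fold changes understate changes of low genes. Each line was fitted alone, and the interaction and the siControl contrast over all 12 libraries. Shares and ratios used exact permutation tests in SciPy 1.17.1, with Python 3.11.15. Code was tested on simulated data.

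The study's methods do not mention a block, so the main fit has none. Deviations from group means of same-numbered libraries correlated at 0.190 to 0.360 for 769-P and at 0.461 to 0.735 for ACHN, all above 0.1, so the replicate numbers of the labels were taken to pair the libraries. No library copied another of its group (chi-square per gene at least 12.6).

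The subunits and lists were chosen with earlier results of these data known. All genes of the short lists were named, and of longer lists the 3 lowest and 3 highest log2 differences in 769-P cells, and for each subunit the 3 genes of highest r. RHEBP2 and FAM72A came by that rule. A gene that overlaps a subunit is not reported here. Alternatives were the replicate block, pseudocounts of 1 and 0.01, no filter, other scalings, all 12 libraries in 1 fit, limma-voom on recovered reads and each library left out.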

Additional observations from a re-analysis of the deposited data

Results flagged for a closer look

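SPC25, which was called in neither line, was lower with siNUF2 in all 3 same-numbered pairs of 769-P, as were 31.8% of all genes, and higher in all 3 of ACHN cells, as were 28%. The response in 769-P less that in ACHN cells was -0.42 on the log2 scale. The interaction did not pass in limma with Benjamini-Hochberg adjustment (adjusted p = 1.00, 0.0604 with the replicate block). Of the partner genes named, the interaction passed only with the replicate block for CDCA8 (-0.39, adjusted p = 0.0415), CKAP5 (-0.35, adjusted p = 0.0381) and PLK1 (-0.37, adjusted p = 0.0498), each with the lower value in 769-P cells.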

How the results depend on the processing

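The fall of NUF2 in 769-P cells kept its direction and its call under all alternatives run. The replicate block raised the genes called from 1402 to 3908 in 769-P cells, from 0 to 1774 in ACHN cells and from 0 to 234 for the interaction. It made NUF2 in ACHN cells (-1.88) pass and brought no other knockdown call among the 4 subunits. Between the lines the blocked fit left NUF2 at 0.43 and NDC80 at 0.39, but its error is the spread within pairs of a line, so no call between lines is drawn from it. All 12 libraries in 1 fit gave 702 and 167 calls in 769-P and ACHN cells, with NUF2 at -1.88 in ACHN (adjusted p = 0.0116), and no filter gave 644 calls in 769-P and 15 for the interaction. No filter also ended the 769-P calls of MAD1L1 (adjusted p = 0.120), BIRC5 (0.0987), CDCA8 (0.0528) and CENPF (0.101), and upper-quartile scaling those of MAD1L1 (0.0538) and CENPF (0.0570), which 1 fit of all libraries ended too (0.335 for CENPF). Limma-voom on the recovered reads called 1755 and 0. Upper-quartile scaling turned CCNA2 in ACHN cells to 0.0082. Per principal transcript length, chosen after seeing the data, the share of NUF2 in 769-P cells differed by -24.9 and that of NDC80 by 10.5 percentage points. The causes were not tested.

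With 1 library left out in turn, calls ranged from 369 (without siNUF2 replicate 3) to 1135 in 769-P cells and from 0 to 1 for the interaction, and NUF2 between the lines from 0.30 to 0.49. Directions turned for NDC80 (-0.021 to 0.44) and SPC24 (-0.15 to 0.32) in ACHN cells, for NDC80 in the interaction (-0.23 to 0.23), and for log2 ratio differences of NDC80 to SPC24 (-0.30 to 0.59), NDC80 to SPC25 (-0.12 to 0.11) and SPC24 to SPC25 (-0.49 to 0.17) in ACHN and SPC24 to SPC25 (-0.074 to 0.070) in 769-P cells. In 769-P cells they turned for CDT1 (-0.013 to 0.25), CENPT (-0.20 to 0.14), DSN1 (-0.098 to 0.082), KNL1 (-0.18 to 0.00059) and SKA1 (-0.23 to 0.049). In ACHN cells they turned for CCNA2 (-0.18 to 0.14), CCNB2 (-0.073 to 0.43), CDCA8 (-0.095 to 0.28), CENPC (-0.069 to 0.15), CENPX (-0.015 to 0.075), CKAP5 (-0.17 to 0.12), KIF11 (-0.072 to 0.24), PLK1 (-0.087 to 0.26), SKA1 (-0.076 to 0.19) and TOP2A (-0.087 to 0.46). With 266 reads or more per subunit and library, the spread between replicates limits precision more than depth.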
